A study of Mus musculus with 9 samples.

Results

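Caspases, death receptors and the kinases of necroptosis are the parts of the cell death machinery described here, by the levels of 8 named genes among the 54532 genes listed in each library. They were taken from the series table by their gene names, and each name matched 1 row. The genes are Tnfrsf10b and Fas (death receptors), Casp8, Casp9 and Casp6 (caspases), and Ripk1, Ripk3 and Mlkl (necroptosis). The cells were b.End3, a line labelled as C57BL/6 brain microvessel endothelial cells (the labels name mouse as the organism but call the line rat), and 3 libraries were made in each group. Control cells (Ctrl) were untreated. Both other groups received photodynamic therapy (PDT): the monolayer was incubated for 90 min with porfimer sodium, a porphyrin photosensitizer, at 300 μg/mL, and was then exposed to a 635 nm laser of 100 mW/cm2 up to 10 J/cm2 (Ep1) or 20 J/cm2 (Ep2). Porfimer sodium and light were given together in both treated groups, so that neither can be told apart from the other, and the time from light to lysis is not given in the sources used here. All libraries came from 1 cell line, and nothing in the labels says whether they were separate cultures, so p-values measure only the spread between these libraries, which may be technical.

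Death receptors sit in the plasma membrane. When a ligand such as TRAIL or FAS ligand binds them, they gather the adaptor FADD and the initiator caspase-8, which cleaves and activates the executioner caspases. Mitochondrial damage acts through cytochrome c, APAF1 and the initiator caspase-9. Where caspase-8 is blocked, RIPK1 can activate RIPK3, which phosphorylates MLKL, and MLKL then breaches the plasma membrane in necroptosis. Photosensitizers under light form reactive oxygen species, which can engage each of these routes, and most of their control lies in cleavage and phosphorylation of proteins that RNA levels do not show.

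The labelled cell type was checked against its markers. Of 12 endothelial markers, 2 or 3 per group reached an FPKM of 1 in any library (Flt1, Eng and, in Ep1, Cdh5). FPKM is fragments scaled by gene length and library size, so comparisons between genes depend on the 1 length listed for each gene. Cdh5, the cadherin of endothelial junctions, lay between 0.524 and 1.09 FPKM, Pecam1 reached 0.242 FPKM at most, and Erg and Emcn were at 0 in all 9 libraries. The summed endothelial markers were 9.45 to 9.67 FPKM in Ctrl, 9.43 to 10.8 in Ep1 and 13.0 to 14.1 in Ep2, and most of that sum was Flt1. The epithelial keratin Krt8 lay between 562 and 714 FPKM and Krt18 between 230.5 and 332 FPKM. Of the same epithelial list, Cdh1 reached 0.103 FPKM at most. Epcam had means of 0.812 FPKM in Ctrl, 0.819 FPKM in Ep1 and 1.77 FPKM in Ep2. The RNA therefore goes against the label in most of its defining markers, and the cells are called b.End3 here without a cell type. Markers of microglia and other leukocytes summed to 1.05 FPKM at most, and those of fibroblasts to between 6.27 and 8.35 FPKM. Each library held between 16240688 and 19509225 fragments on genes. Ep2 replicate 1 stood apart, and its chi-square over all genes, divided by the degrees of freedom, was 9.16 and 13.8 against the other 2 Ep2 libraries, where all other pairs within a group lay between 2.70 and 5.25. Results in Ep2 are therefore given with and without it where it changes them.

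In Ctrl, the levels of the 8 genes fell in one order: Mlkl, Ripk3, Tnfrsf10b, Casp8, Ripk1, Casp9, Casp6 and Fas, and no neighbours in this order overlapped between libraries. Mlkl stood above 89.9% of the tested genes and Casp6 above 21.5%. In FPKM, the 2 genes at the end of the necroptosis route were thus the 2 highest. Ripk3 was 1.93 ± 0.0998 (SD, n = 3) times as high as Casp8. This order depends on the listed lengths, such as 2303 bases for Mlkl and 5451 for Tnfrsf10b. In fragments over the Ctrl libraries, Tnfrsf10b (6666) stood above Mlkl (6239), and Ripk1 (4568) above Ripk3 (3224). Whether the listed lengths are those of the transcripts present was not tested. In Ep1, Tnfrsf10b moved above Ripk3 without overlap. In Ep2 these 2 genes overlapped, while all other neighbours kept the order of Ctrl without overlap.

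**Figure D1:**
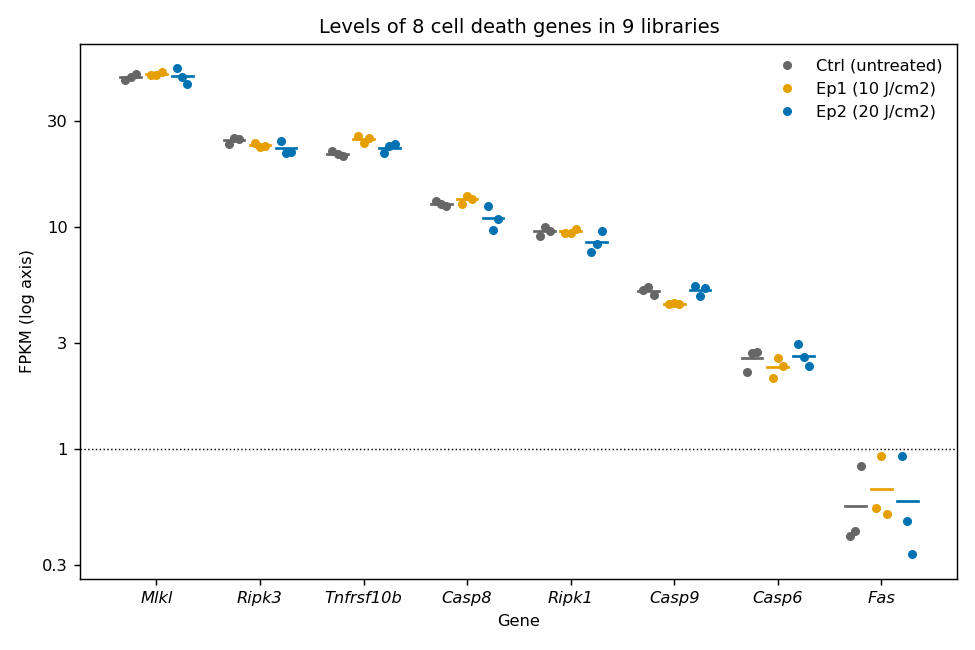
FPKM (log axis) of the 8 genes in the 9 libraries, with points for libraries in the order of replicates 1 to 3, lines for group means, and a dotted line at the filter of 1 FPKM. Mlkl was the highest at 43.9 to 51.7 FPKM and Fas the lowest at 0.334 to 0.932 FPKM, and the order of the genes was the same in each group except for Tnfrsf10b and Ripk3.

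Casp8 and Casp9 are the initiator caspases of the receptor and mitochondrial routes. In the tests given below, 2 of the 7 genes tested differed between both doses of light, beside 44.0% of all tested genes. Casp8 was lower and Casp9 higher in Ep2. Without 1 library, the call of Casp8 held in 3 of 6 fits and that of Casp9 in 1 of 6. The promoters of Casp8 and Casp9 are shown because of these 2 calls. They run from 250 bases before to 50 after the transcription start in RefSeq (GRCm38.p6, plus strand). Of the 8 genes, 7 matched an entry. The Casp8 promoter is chr1:58802252-58802551 and the Casp9 promoter chr4:141793362-141793661, with the motifs found in capitals.
Casp8: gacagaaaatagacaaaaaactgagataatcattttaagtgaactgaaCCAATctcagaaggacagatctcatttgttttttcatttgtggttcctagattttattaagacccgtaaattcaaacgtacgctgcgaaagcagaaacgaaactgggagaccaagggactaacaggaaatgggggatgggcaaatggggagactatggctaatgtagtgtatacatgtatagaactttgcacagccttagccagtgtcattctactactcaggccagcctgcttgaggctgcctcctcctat
Casp9: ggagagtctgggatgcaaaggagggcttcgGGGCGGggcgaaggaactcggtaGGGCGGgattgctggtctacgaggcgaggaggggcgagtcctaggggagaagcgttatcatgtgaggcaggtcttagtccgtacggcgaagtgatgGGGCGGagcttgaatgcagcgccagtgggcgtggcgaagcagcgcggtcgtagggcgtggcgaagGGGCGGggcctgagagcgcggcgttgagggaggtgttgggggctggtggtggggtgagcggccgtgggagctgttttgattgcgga
The Casp8 promoter holds 5 CG dinucleotides, against a median of 7 over 32851 mouse promoters, and 1 CCAAT box (CCAAT) 202 bases before the start. CCAAT occurred in 37.4% of all promoters. This start lies 7128 bases inside the Casp8 gene as the files list it. The Casp9 promoter holds 28 CG dinucleotides, more than 85.8% of promoters, and 4 GC boxes (GGGCGG), a motif found in 35.7% of promoters. Further motifs were searched on both strands and had no match in either sequence: TATAAA (in 13.6% of promoters), TGANTCA (7.81%), TTCNNNGAA (8.30%) and CACGTG (7.15%). A match to a motif is a description of the letters only.

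The main comparisons asked whether PDT changed the RNA level of these genes at each dose. FPKM was taken as log2(FPKM + 1), and 11727 genes with at least 1 FPKM in at least 3 libraries were tested with limma in one fit of all 9 libraries, with Benjamini-Hochberg adjustment over all of them. A gene passed at an adjusted p-value below 0.05, and was a differentially expressed gene (DEG) when its absolute log2 fold change (log2 change) was also above 0.6. Of the 8 genes, 7 were tested, and Fas was under the filter. In Ep1 against Ctrl, 1 of 7 passed, and it rose (Tnfrsf10b), where 11.3% of all tested genes passed, 6.32% upwards and 4.97% downwards. In Ep2 against Ctrl, none of the 7 passed in limma and 1 had an unadjusted p below 0.05 (Casp8), where 53.2% of all tested genes passed, 23.9% upwards and 29.3% downwards. With limma's voom on the recovered fragments, which tested Fas as well, 1 of the 8 genes passed (Casp8), where 7056 of 14112 genes did. In Ep2 against Ep1, 2 of 7 passed, Casp8 downwards and Casp9 upwards, where 44.0% of all tested genes passed, 18.8% upwards and 25.2% downwards. When each library was centred on its median, the split of Ep2 against Ctrl turned from 2800 genes higher and 3436 lower to 3311 and 2971, and that of Ep2 against Ep1 from 2206 and 2950 to 2974 and 2383. No gene of the 7 was a DEG in any comparison, where DEGs made up 0.793%, 9.17% and 5.90% of tested genes in Ep1 against Ctrl, Ep2 against Ctrl and Ep2 against Ep1. The median log2 fold change of the 7 genes was 0.00, 0.004 and -0.041 in these comparisons, beside -0.0093, -0.0289 and -0.0148 over all tested genes. The comparisons share libraries, Ctrl in the first and second and both treated groups in the third. In bulk RNA, fewer cells that express a gene and less of its RNA per cell cannot be told apart.

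**Figure D2:**
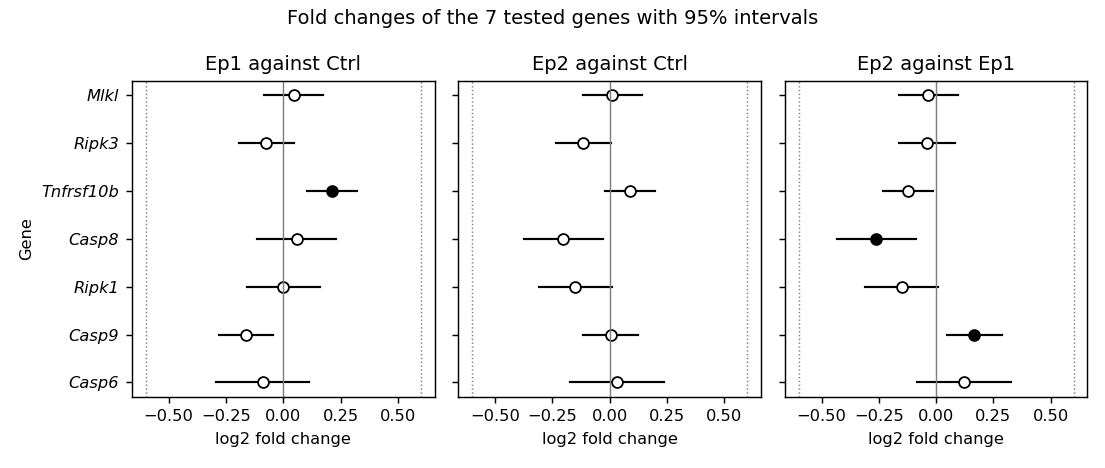
Log2 fold changes of the 7 tested genes with 95% intervals in the 3 comparisons, with filled points past an adjusted p-value of 0.05 (limma) and dotted lines at a log2 change of 0.6 in either direction. Tnfrsf10b (0.21) passed in Ep1 against Ctrl, Casp8 (-0.26) and Casp9 (0.17) in Ep2 against Ep1, and every interval lies inside the dotted lines.

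Tnfrsf10b encodes the death receptor for TRAIL in the mouse (ENSMUSG00000022074, chr14:69767472-69784411, GRCm38 positions as listed). Its level was 21.9, 21.2 and 20.8 FPKM in the Ctrl libraries, 25.6, 23.9 and 25.1 FPKM in Ep1, and 21.4, 23.2 and 23.6 FPKM in Ep2. All Ep1 libraries lay above all Ctrl and all Ep2 libraries, while Ctrl and Ep2 overlapped. Between Ep1 and Ctrl its log2 fold change was 0.21 (SE 0.049, 95% interval 0.10 to 0.32, limma adjusted p = 0.0283), or 1.16-fold on the FPKM + 1 scale. The call rests on most libraries: it was lost in 5 of the 6 fits that leave out a Ctrl or Ep1 library (adjusted p up to 0.103 in limma, without Ctrl replicate 2), and kept without Ep1 replicate 2 (adjusted p = 0.0392). With no filter it was lost as well (limma adjusted p = 0.0774). The log2 fold change stayed between 0.19 and 0.24 in these fits. In Ep2 it was 0.09 against Ctrl (interval -0.02 to 0.20, limma adjusted p = 0.155), and without Ep2 replicate 1 it was 0.13 (adjusted p = 0.0343). Between Ep2 and Ep1 the difference was -0.12 (interval -0.23 to -0.01, limma adjusted p = 0.0665).

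Fas encodes the receptor of FAS ligand (ENSMUSG00000024778, chr19:34290659-34327770). It was near the limit of these libraries, with 0.403, 0.426 and 0.837 FPKM in Ctrl, 0.541, 0.927 and 0.508 FPKM in Ep1, and 0.932, 0.475 and 0.334 FPKM in Ep2. These values rest on 10 to 32 fragments per library, and the ranges of all groups overlapped. Without the filter on low values, its log2 fold change was 0.10 in Ep1 (interval -0.30 to 0.49) and 0.02 in Ep2 (interval -0.38 to 0.41) on the log2(FPKM + 1) scale. On the recovered fragments, the interval in Ep1 ran from -0.56 to 1.10 and that in Ep2 from -0.81 to 0.91. A change of Fas of less than about these intervals was not detectable at this depth.

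Casp8 encodes the initiator caspase of death receptor complexes, which also cleaves RIPK1 and RIPK3 (ENSMUSG00000026029, chr1:58795374-58847503). Ctrl libraries held 13.0, 12.7 and 12.4 FPKM, Ep1 libraries 12.7, 13.8 and 13.4 FPKM, and Ep2 libraries 12.5, 9.66 and 10.8 FPKM. All Ep2 libraries lay below all Ep1 libraries, and Ep2 replicate 1 alone reached into the range of Ctrl. Between Ep2 and Ep1, Casp8 fell by 0.26 on the log2 scale (SE 0.077, interval -0.43 to -0.09, limma adjusted p = 0.0212). This call was lost without Ep1 replicate 2, Ep1 replicate 3 or Ep2 replicate 2, with adjusted p-values up to 0.0724 in limma, and with median centring (-0.21, adjusted p = 0.0552), gene length correction (-0.20, adjusted p = 0.0603) and no filter (adjusted p = 0.0608). Against Ctrl, Ep2 was at -0.20 (SE 0.077, interval -0.37 to -0.03, limma adjusted p = 0.0502), which misses the threshold. Without Ep2 replicate 1, Casp8 passed there as well, at -0.29 (limma adjusted p = 0.00265). With gene length corrected in each library the same difference was -0.11, with limma adjusted p = 0.239. In Ep1 against Ctrl it was 0.06 (interval -0.11 to 0.23, adjusted p = 0.646).

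Casp9 encodes the initiator caspase that APAF1 activates (ENSMUSG00000028914, chr4:141793612-141815976). Its level was 5.18, 5.36 and 4.92 FPKM in Ctrl, 4.47, 4.52 and 4.50 FPKM in Ep1, and 5.39, 4.85 and 5.27 FPKM in Ep2. All 3 Ep1 libraries lay below all Ctrl and all Ep2 libraries, which overlapped each other. Between Ep2 and Ep1, Casp9 rose by 0.17 on the log2 scale (SE 0.053, interval 0.05 to 0.29, limma adjusted p = 0.0295). The 6 fits without 1 library gave 0.14 to 0.20, and the call held in 1 of them, without Ep2 replicate 2 (adjusted p = 0.0200). It was also lost with the replicate block, with no filter (limma adjusted p = 0.0629) and in a fit of Ep1 and Ep2 alone (adjusted p = 0.0547). In Ep1 against Ctrl the value was -0.16 (interval -0.28 to -0.04, limma adjusted p = 0.0767) and in Ep2 against Ctrl 0.004 (interval -0.12 to 0.12, adjusted p = 0.958). Exons of Casp9 share 471 bases with Cela2a on the opposite strand in the GENCODE M39 annotation, and Cela2a is listed at 0 in every library.

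Casp6 encodes an executioner caspase (ENSMUSG00000027997, chr3:129901425-129914103). It held 2.23, 2.71 and 2.72 FPKM in Ctrl, 2.09, 2.57 and 2.35 FPKM in Ep1, and 2.96, 2.58 and 2.35 FPKM in Ep2. All groups overlapped. Its log2 changes were -0.09 in Ep1 (interval -0.29 to 0.11, limma adjusted p = 0.547) and 0.03 in Ep2 (interval -0.17 to 0.24, adjusted p = 0.794), so that changes of up to about these sizes could not be shown.

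Ripk1 encodes the kinase and scaffold at the branch between survival, apoptosis and necroptosis (ENSMUSG00000021408, chr13:34002363-34037147). It was at 9.07, 9.94 and 9.60 FPKM in Ctrl, 9.39, 9.40 and 9.81 FPKM in Ep1, and 7.66, 8.37 and 9.54 FPKM in Ep2. Ep1 lay inside the range of Ctrl, and Ep2 replicates 1 and 2 lay below all libraries of both other groups. Its log2 change was 0.0005 in Ep1 (interval -0.16 to 0.16, limma adjusted p = 0.997) and -0.15 in Ep2 (interval -0.31 to 0.01, adjusted p = 0.103). Single Ep2 libraries moved the latter both ways, to -0.08 without Ep2 replicate 1 (limma adjusted p = 0.288) and to -0.23 without Ep2 replicate 3 (adjusted p = 0.0123). It was -0.10 with median centring (adjusted p = 0.252) and -0.19 with gene length correction (adjusted p = 0.0345). Exons of Ripk1 share 241 bases with those of Serpinb6a on the opposite strand, whose mean level was 58.9 FPKM in Ctrl and 75.9 FPKM in Ep2. Whether the counting used strand is not given in the sources used here, and the part of Serpinb6a in these values was not tested.

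Ripk3 encodes the kinase that phosphorylates MLKL (ENSMUSG00000022221, chr14:55784995-55788865). It was at 23.6, 25.1 and 24.8 FPKM in Ctrl, 23.7, 22.8 and 23.1 FPKM in Ep1, and 24.4, 21.5 and 21.8 FPKM in Ep2. Ep2 replicates 2 and 3 lay below all other libraries, and Ep2 replicate 1 lay within Ctrl. Its log2 change was -0.07 in Ep1 (interval -0.19 to 0.05, limma adjusted p = 0.397) and -0.11 in Ep2 (interval -0.24 to 0.01, adjusted p = 0.101). Without Ep2 replicate 1 it passed in Ep2, at -0.17 (limma adjusted p = 0.00828). With that library left out, 3 of the 7 genes passed in Ep2 against Ctrl (Casp8 and Ripk3 lower, Tnfrsf10b higher), where 6442 of 11727 genes passed.

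Mlkl encodes the pseudokinase that carries out necroptosis (ENSMUSG00000012519, chr8:111311797-111338177). Its level was 45.6, 47.1 and 48.9 FPKM in Ctrl, 48.4, 48.3 and 49.5 FPKM in Ep1, and 51.7, 47.3 and 43.9 FPKM in Ep2. The Ep2 libraries spread to both sides of Ctrl. Its log2 change was 0.04 in Ep1 (interval -0.08 to 0.17, limma adjusted p = 0.639) and 0.01 in Ep2 (interval -0.12 to 0.14, adjusted p = 0.895). In the 3 comparisons, the intervals for Mlkl reached 0.17 at most in either direction. Between both doses, the values of the remaining genes were 0.12 for Casp6 (limma adjusted p = 0.307), -0.15 for Ripk1 (0.114), -0.04 for Ripk3 (0.569) and -0.03 for Mlkl (0.655).

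Over the 9 libraries, the genes whose log2(FPKM + 1) correlated best with each of the 7 were found among 11726 others, as a description over libraries that share groups. Tnfrsf10b was most like Tob2 (Pearson's r = 0.970), Kcnj14 (0.967) and Zranb1 (0.966). Casp8 was most like Psmd9 (0.961), Prkar2a (0.959) and Pak1ip1 (0.952), and Casp9 like Fendrr (0.962), Plekhn1 (0.957) and Cramp1l (0.939). For Ripk1 these were Uri1 (0.950), Ankrd17 (0.942) and Rsrc2 (0.934). For Ripk3 they were Tnfsf9 (0.933), Zfpl1 (0.931) and Gm17383 (0.928), and for Mlkl M6pr (0.941), Emc7 (0.939) and Psmd10 (0.908). For Casp6 they were 1700058P15Rik (0.941), Tmem231 (0.930) and Gm13217 (0.924). None of the 21 is one of the 8 genes.

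The pathways around the 8 genes were described by 70 further genes in 8 lists, of which 56 were tested. In Ep1 against Ctrl, 12 of the 56 passed, where 11.3% of all tested genes did, and 7 rose and 5 fell, at a median of -0.035 in log2 change. In Ep2 against Ctrl, 33 of 56 passed, where 53.2% of all tested genes did, and 18 rose and 15 fell (median -0.045). Of these, 7 were DEGs, a class that held 9.17% of all tested genes. Between Ep2 and Ep1, 24 of 56 passed beside 44.0% of all tested genes, with 13 higher and 11 lower (median 0.03), and 4 were DEGs. With median centring the last split became 18 higher and 10 lower. The count of 12 in Ep1 was 1 without Ctrl replicate 1, without Ctrl replicate 2 or without Ep1 replicate 3, and 4 without Ep1 replicate 1. Pak2 passed in each of these fits. In Ep2 against Ctrl the fits without 1 library gave 29 to 34 genes. All 7 DEGs of Ep2 also passed the adjusted p-value in every alternative in which they were tested, with log2 changes as small as -0.50 for Stub1, 0.53 for Nlrp3 and 0.55 for Cflar and Ikbkg. Beside these changes, the summed endothelial markers were higher in every Ep2 library than in any other, and most of that sum was Flt1. Flt1 rose by 0.59 in log2 terms in Ep2 against Ctrl (limma adjusted p = 9.67e-05), while Eng did not pass (-0.13, adjusted p = 0.274). Cdh5 had means of 0.857 FPKM in Ctrl and 0.753 FPKM in Ep2. Krt18 rose by 0.37 in log2 terms (limma adjusted p = 0.000887). The part of these markers in the values was not tested.

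**Figure D3:**
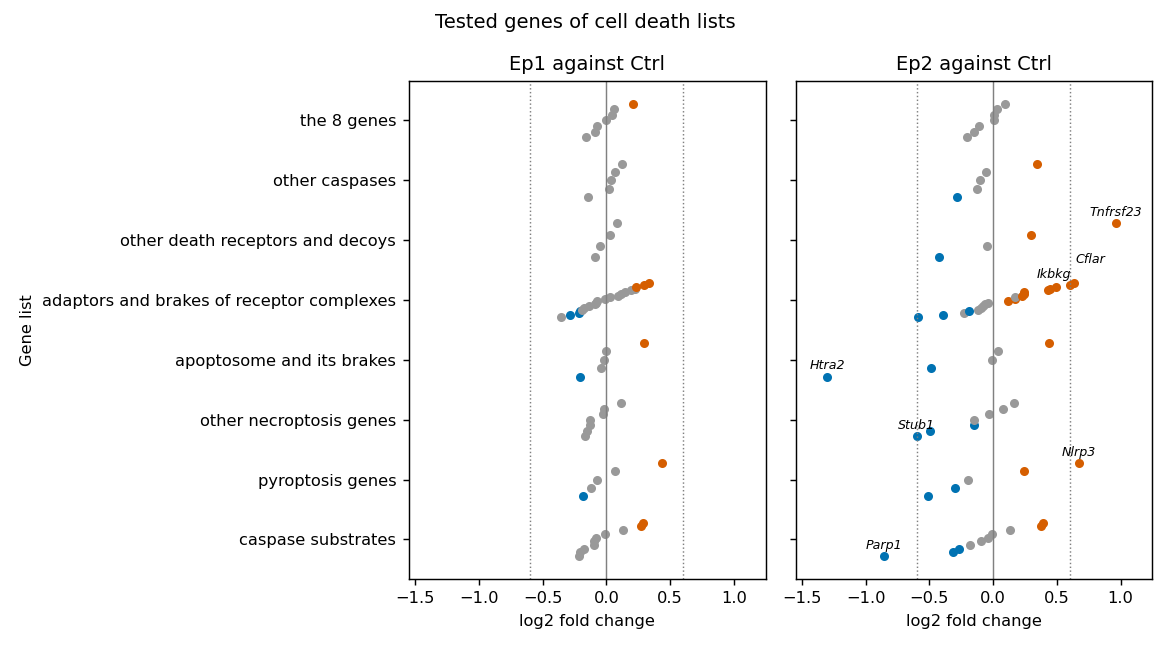
Log2 fold changes of the tested genes by list in Ep1 and Ep2 against Ctrl, 1 point per gene, orange for genes that passed upwards and blue for genes that passed downwards (adjusted p-value below 0.05, limma), grey for the rest, dotted lines at 0.6 in either direction. In Ep2, 3 labelled DEGs lie on the lower side (Htra2, Parp1 and Stub1) and 4 on the upper side (Tnfrsf23, Nlrp3, Cflar and Ikbkg).

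Among the other caspases, 5 of 7 were tested and none passed in Ep1. In Ep2 against Ctrl, 1 rose and 1 fell, at a median of -0.103 in log2 change. Casp4, an inflammatory caspase that senses bacterial lipopolysaccharide, was at 2.60 ± 0.218 FPKM in Ctrl and 3.57 ± 0.373 FPKM in Ep2 (SD, n = 3), a log2 change of 0.34 (limma adjusted p = 0.00362). Casp2 and Casp12 did not pass in any comparison. Casp1 reached 0.217 FPKM at most, and Casp14 was at 0 in every library.

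Death ligands were at or near 0: of Fasl, Tnf, Tnfsf10 (TRAIL) and Lta none was tested, and the highest value was 0.193 FPKM, for Tnfsf10. Of the other death receptors and decoys, 4 of 8 were tested and none passed in Ep1. In Ep2, 2 rose and 1 fell. Tnfrsf1a, the main TNF receptor, was at 48.8 ± 2.34 FPKM in Ctrl and 60.1 ± 1.67 FPKM in Ep2, with a log2 change of 0.30 (limma adjusted p = 0.000726). Tnfrsf23, a mouse decoy receptor for TRAIL, was at 10.3, 11.7 and 11.1 FPKM in Ctrl, 13.1, 11.8 and 10.5 FPKM in Ep1, and 24.3, 21.3 and 22.1 FPKM in Ep2. It had a log2 change of 0.96 (SE 0.080, limma adjusted p = 1.78e-05), while Tnfrsf22, a neighbouring decoy gene of similar sequence, was at -0.05 (adjusted p = 0.556). How fragments shared by this pair were counted is not given in the sources used here. Tnfrsf21, which encodes death receptor DR6, fell by 0.43 in Ep2 (limma adjusted p = 0.016). Tnfrsf25, Ngfr, Edar and Tnfrsf11b stayed under the filter, at 0.228 FPKM or less.

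The adaptors and brakes of receptor complexes were the longest list. Of 20 tested genes, 3 rose and 3 fell in Ep1, and 10 rose and 3 fell in Ep2, with a median of 0.141 in Ep2. Over all tested genes, 6.32% rose and 4.97% fell in Ep1, and 23.9% rose and 29.3% fell in Ep2 (median -0.0289). The counts of the other lists stand beside the same shares. Cflar, which encodes the caspase-8 homologue c-FLIP that holds caspase-8 in check, rose at both doses. It was at 4.003, 3.95 and 4.20 FPKM in Ctrl, 6.07, 4.83 and 5.25 FPKM in Ep1, and 7.04, 6.40 and 7.13 FPKM in Ep2, and no groups overlapped. Its log2 change was 0.33 in Ep1 (limma adjusted p = 0.0251, passed in 10 of 15 alternatives) and 0.64 in Ep2 (adjusted p = 0.000106). Ikbkg, which encodes NEMO, was at 10.0 ± 0.752 FPKM in Ctrl and 15.7 ± 0.287 FPKM in Ep2, a log2 change of 0.60 (limma adjusted p = 3.27e-05). Its exons share 526 bases with G6pdx on the opposite strand, whose mean was 63.1 FPKM in Ctrl and 45.6 FPKM in Ep2. Birc3, one of the inhibitor of apoptosis proteins that ubiquitinate RIPK1, rose by 0.49 in Ep2, and Birc2 by 0.23 (limma adjusted p = 0.00199 and 0.00906). Tbk1, a kinase that restrains RIPK1, rose by 0.29 in Ep1 and 0.44 in Ep2 (adjusted p = 0.0178 and 0.000218). Rbck1 and Otulin fell at both doses. Rbck1, a subunit of the ligase LUBAC, was at 48.2 ± 2.51 FPKM in Ctrl, at 41.5 ± 1.73 FPKM in Ep1 and then at 31.6 ± 1.47 FPKM in Ep2, with log2 changes of -0.21 and -0.59 (adjusted p = 0.0383 and 2.72e-05). Otulin, the deubiquitinase of such chains, was at -0.22 and -0.40 (adjusted p = 0.022 and 0.000104). Tnfaip3 stayed under the filter, at 0.388 to 1.16 FPKM.

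In the apoptosome list, 1 of 5 tested genes rose and 1 fell in Ep1, and 1 rose and 2 fell in Ep2. Xiap, which encodes the inhibitor that binds caspase-9 and the executioners, was at 7.30, 7.32 and 8.08 FPKM in Ctrl, 9.25, 9.61 and 9.61 FPKM in Ep1, and 10.2, 10.4 and 11.2 FPKM in Ep2. No groups overlapped, and the log2 fold change was 0.29 in Ep1 and 0.44 in Ep2 (limma adjusted p = 0.0144 and 0.000162). Htra2, a mitochondrial protease that opposes XIAP once released, was at 19.1, 18.7 and 19.0 FPKM in Ctrl, 15.3, 16.9 and 16.4 FPKM in Ep1, and 6.78, 6.91 and 7.52 FPKM in Ep2, with log2 changes of -0.21 (adjusted p = 0.0342) and -1.30 (SE 0.052, limma adjusted p = 1.47e-06). In the GENCODE M39 annotation, its exons share 1400 bases with Aup1 and 1182 with Loxl3 on the opposite strand. At the positions listed with the data, Htra2 overlaps Aup1 by only 753 bases and Loxl3 by 1297, introns included. Aup1 and Loxl3 had means of 20.3 and 3.01 FPKM in Ctrl and 17.9 and 2.28 FPKM in Ep2. Cycs (cytochrome c), a gene with many pseudogene copies in the genome, fell by 0.49 in Ep2 (limma adjusted p = 0.000206). Apaf1 was at 0.03 in Ep2 (adjusted p = 0.726), and Diablo stayed under the filter at 0.732 to 0.996 FPKM.

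**Figure D4:**
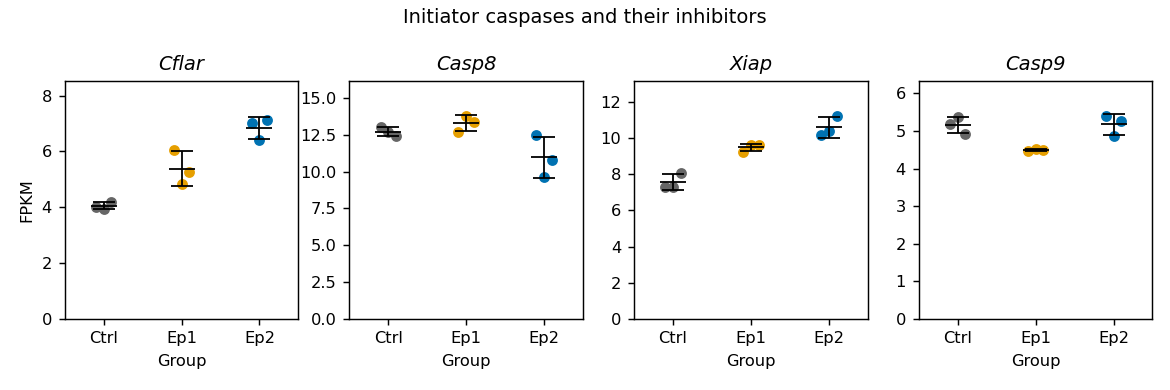
FPKM of Cflar and Casp8 and of Xiap and Casp9 in each library (points, replicates 1 to 3) with mean and SD (bars, n = 3) by group. Cflar and Xiap were lowest in Ctrl and highest in Ep2 with no overlap between groups, while Casp8 was lowest in Ep2 and Casp9 lowest in Ep1.

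Within each library, the level of each inhibitor was set against that of its caspase, a pairing chosen after the values were seen and given without a test. The ratio of Cflar to Casp8 was 0.308, 0.311 and 0.338 in Ctrl, 0.478, 0.350 and 0.393 in Ep1, and 0.565, 0.663 and 0.659 in Ep2. These ratios did not overlap between groups. The ratio of Xiap to Casp9 averaged 1.47 ± 0.149 in Ctrl, 2.11 ± 0.0358 for Ep1 and 2.05 ± 0.142 for Ep2 (SD, n = 3), higher in every treated library than in Ctrl and overlapping between the doses. The ratio of Mlkl to Ripk3 was 1.93 ± 0.0489, 2.10 ± 0.0540 and 2.11 ± 0.0923 in the same order.

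Of the other necroptosis genes, 7 of 8 were tested, none passed in Ep1, and 3 fell and none rose in Ep2, at a median of -0.15. Stub1, a ubiquitin ligase that targets RIPK3, was at 46.2, 45.4 and 39.8 FPKM in Ctrl, 39.5, 38.7 and 41.2 FPKM in Ep1, and 30.5, 27.9 and 27.1 FPKM in Ep2, a log2 change in Ep2 of -0.60 (SE 0.065, limma adjusted p = 6.95e-05). In the GENCODE M39 annotation, Stub1 shares 1728 exonic bases with Jmjd8 on the opposite strand. At the positions listed with the data, the 2 genes overlap by only 1207 bases, introns included. Jmjd8 was at 4.45 FPKM in Ctrl and 3.83 FPKM in Ep2. Cdc37, a co-chaperone that RIPK3 needs, fell by 0.49 (adjusted p = 3.81e-05), and Pgam5, a mitochondrial phosphatase, by 0.15 (adjusted p = 0.0485). Zbp1, a sensor that can activate RIPK3, stayed at 0.0916 FPKM or less, and Tlr3, Ticam1, Ppm1b and Itpk1 did not pass against Ctrl.

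Of the pyroptosis genes, 5 of 6 were tested, with 1 rise and 1 fall in Ep1 and 2 of each in Ep2. Gsdmd, the pore protein of pyroptosis, fell at both doses, from 40.9 ± 0.864 FPKM in Ctrl to 35.8 ± 0.984 FPKM in Ep1 and 28.3 ± 1.30 FPKM in Ep2 (log2 fold changes of -0.19 and -0.51, limma adjusted p = 0.0317 and 2.13e-05). Ninj1, which ruptures the membrane of dying cells, fell by 0.30 in Ep2 (adjusted p = 0.00246). Nlrp3, an inflammasome sensor, was at 1.03, 0.819 and 0.850 FPKM in Ctrl, 1.68, 1.48 and 1.55 FPKM in Ep1, and 2.68, 1.87 and 1.63 FPKM in Ep2, with log2 changes of 0.44 and 0.67 (adjusted p = 0.048 and 0.0013). Nlrp3 passed the filter through the treated libraries, and the inflammasome adaptor Pycard stayed under it at 0.174 FPKM or less.

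All 10 caspase substrates were tested, of which 2 rose and none fell in Ep1, and 2 rose and 3 fell in Ep2. Parp1, a sensor of DNA breaks that executioner caspases cleave, was at 35.9, 34.5 and 34.4 FPKM in Ctrl, 33.2, 35.3 and 35.4 FPKM in Ep1, and 17.9, 19.8 and 18.9 FPKM in Ep2. It did not pass in Ep1 (-0.01, limma adjusted p = 0.889) and fell by 0.86 in Ep2 (SE 0.048, adjusted p = 3.36e-06). Pak2 and Rock1, kinases that caspases cleave and that act in the shape change of dying cells, both rose at both doses. Pak2 was at 19.9 ± 0.657 FPKM in Ctrl, 24.5 ± 0.501 FPKM in Ep1 and 26.5 ± 0.195 FPKM in Ep2, with log2 changes of 0.28 and 0.39 (limma adjusted p = 0.00704 and 4.44e-05). Between Ep2 and Ep1, the 4 DEGs of all lists were Htra2 (-1.09), Parp1 (-0.84), Tnfrsf23 (0.88) and Ikbkg (0.61), with adjusted p-values of 4.12e-06, 5.1e-06, 4.42e-05 and 4.77e-05 in limma.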

How the data were processed

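RNA of 9 libraries of b.End3 cells was sequenced. The authors deposited 1 FPKM value per gene and library with gene lengths and positions, and the 9 single-library tables equal the joint table. The submitters' processing notes list Bowtie 0.12.2 and mm8, the methods name GRCm39, and 99.86% of 37624 gene symbols overlap their RefSeq position on GRCm38.p6, which is used for positions here. The counting tool and strand setting are not given in the sources used here.

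FPKM times gene length was a whole multiple of 1 step per library for 100% of values (tolerance 0.05), which gave fragments. Each value thus has a counting error, and a gene at 0 may still have up to 3 fragments by counting error alone. The test was limma 3.58.1 in R 4.3.3 without covariates, by lmFit and eBayes (trend = TRUE, robust = TRUE), on log2(FPKM + 1), a scale that understates changes of low genes. On simulated data for Ep2 against Ctrl with 11575 genes tested, it called 194 of 197 genes changed 2-fold, with 14 false calls, and the fitted change was a median of 0.863 of the true one. Alternatives were a pseudocount of 0.1, no filter, a filter of 5 FPKM, median centring, gene length correction, a replicate block, only the groups compared, voom on genes with at least 10 fragments in at least 3 libraries, no trend, and leaving out each library. Leaving out libraries was added for the counts of pathway genes after seeing the data.

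The 8 genes and all lists were chosen with earlier results of these data known, so they are described by counts and medians without a list test. Named are the 8 genes, listed genes that were DEGs or under the filter, for each list the smallest adjusted p-value with a rise and a fall in Ep2, and the 3 genes most correlated with each of the 8. Other names were chosen after their values were seen. Some listed genes are not reported here. Promoters came from RefSeq (GRCm38.p6). Exonic overlaps came from GENCODE M39. Tables and plots were made with matplotlib 3.10.9, pandas 2.3.3, scipy 1.17.1 and numpy 2.4.6 in Python 3.11.15. The imaging, qPCR and flow cytometry of the study were not used here.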

Additional observations from a re-analysis of the deposited data

Results flagged for a closer look

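Casp8 and Casp9 differed between both light doses in the test of that difference itself (limma, Ep2 against Ep1). Casp8 was lower in Ep2, with a log2 change of -0.26 (-0.2608, adjusted p = 0.0212), in 3 of 3 Ep2 libraries below all Ep1 libraries. Casp9 was higher in Ep2, with a log2 change of 0.17 (0.1663, adjusted p = 0.0295), in 3 of 3 Ep2 libraries above all Ep1 libraries. Both sizes are well under the DEG threshold of 0.6. In this comparison 2 of the 7 tested genes passed, beside 44.0% of all tested genes. Without 1 library, Casp8 passed in 3 of 6 fits and Casp9 in 1 of 6. Of the 9 other alternatives, each passed in 6. Groups of 3 libraries were not searched for single outlying values.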

How the results depend on the processing

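Of the 8 genes, 1 passed in Ep1 against Ctrl, and none did with no filter, with the replicate block or with the fold change threshold of 0.6 (0 to 1 without 1 library). In Ep2 against Ctrl none passed, and 1 did with a pseudocount of 0.1, a filter of 5 FPKM or voom (Casp8), with median centring (Tnfrsf10b) and with gene length correction (Ripk1). Over all genes, 6229 of 11727 passed there with a pseudocount of 0.1, 4836 of 7535 with a filter of 5 FPKM and 7056 of 14112 with voom. Median centring gave 6282 and gene length correction 6219 of 11727 genes. Without 1 library the count was 0 to 3, where 5356 to 6442 of 11727 genes passed. In Ep2 against Ep1, 2 passed, 0 with no filter or the fold change threshold, and 1 with median centring or gene length correction (Casp8 lost) and with the replicate block or only the groups compared (Casp9 lost, adjusted p = 0.0536 and 0.0547 in limma; 0 to 3 without 1 library). Over all genes, 4474 of 26717 passed in Ep2 against Ep1 with no filter. Of 11727 genes, 5357 passed with median centring, 5205 with gene length correction and 4635 with only the groups compared. Without 1 library, 4115 to 5227 of them did. The cause of the changed counts was not tested. Replicate numbers did not pair the libraries: deviations of same-numbered libraries correlated at -0.056 to 0.074. Those of differently numbered libraries correlated at -0.108 to 0.153. With the replicate block, 0, 0 and 1 of the 7 genes passed, and 1051, 6110 and 4983 of all genes against 1324, 6236 and 5156. The sign turned for Ripk1 in Ep1 against Ctrl (-0.0084 with median centring, -0.0316 with length correction, -0.0318 to 0.0280 without 1 library), and in Ep2 against Ctrl without 1 library for Casp6 (-0.0361 to 0.0876), Casp9 (-0.0235 to 0.0415) and Mlkl (-0.0493 to 0.0657). In Ep2 against Ep1 it turned for Ripk3 (0.0146 and 0.0201) and Mlkl (0.0207 and 0.0262) with median centring and length correction, and for Mlkl without 1 library (-0.0942 to 0.0208). None of these had passed. Of pathway genes, 2 instead of 12 passed in Ep1 with no filter, and 1 to 9 without 1 library. DEGs over all genes numbered 93, 1075 and 692, and 243, 2211 and 1553 with voom, and 147, 1616 and 1101 with a pseudocount of 0.1. In Ep1 they were 33 to 112 without 1 library. The 1324 calls of Ep1 became 396 with no filter, 2162 with only the groups compared, and 191 to 1034 without 1 library.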
